A study of Mus musculus with 12 samples.

Results

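The antioxidant and glutathione genes described here are the glutathione transferases, glutathione peroxidases, peroxiredoxins, thioredoxins and thioredoxin-like proteins, superoxide dismutases, catalase, the enzymes that make and recycle glutathione, the metallothioneins Mt1 and Mt2, and Nfe2l2 with its targets Hmox1 and Nqo1. They were chosen by gene symbol alone, without use of any measured value, and each is represented by its brightest probe. The choice holds 65 of the 17305 genes that have a named probe on the array. A further 3 protein-coding genes with such symbols (Gpx5, Gstk1 and Gstp2) have no named probe and were not analysed here. A scanner call of well above background was made on all 12 arrays for 58 of the 65, and on every array of at least 1 genotype for 60. The dimmest were Gpx6, Gstm6 and Txndc8, which were well above background on no array, and Gstm7 and Txndc2, which were so on some arrays but not on all arrays of any genotype.

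Pancreatic islets of WT, PPARg2KO, OB and DKO mice were compared on 3 arrays in 1 colour per genotype. WT is wild type, PPARg2KO lacks the PPARg2 isoform of the adipogenic nuclear receptor PPARg, OB is the leptin-deficient obese mouse (ob/ob in the study), and DKO lacks both leptin and PPARg2 (POKO in the study). All mice were female per the study, on a C57BL/6 x Sv129 background, fed chow, with an age of 4 weeks in the labels, where the study's text gives a different age. The deletions are in the whole body, so effects within and outside the islet cannot be told apart. Islets were freed with collagenase, picked by hand, kept in culture overnight and pooled over several mice for each array. The 3 arrays of a genotype are the replicates, and the p values measure the spread between these pools.

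Islet beta cells are known for low activity of catalase and of the glutathione peroxidases, and for a reliance on peroxiredoxins and thioredoxin to remove hydrogen peroxide. Glutathione is made from glutamate, cysteine and glycine by glutamate-cysteine ligase (Gclc and Gclm) and glutathione synthetase (Gss), is oxidized by the peroxidases, and is returned to its reduced form by Gsr at the cost of NADPH. The transferases couple glutathione to electrophiles. The transcription factor NRF2, the product of Nfe2l2, turns on many of these genes through the antioxidant response element when its inhibitor KEAP1 is disabled.

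The level of a gene is given as the log2 of the processed signal after quantile normalization, and the difference between genotypes as a log2 fold change from 1 limma fit on all 12 arrays, with its standard error (SE). A gene was called at an adjusted p (Benjamini-Hochberg over 41174 probes) of at most 0.05. Levels of different probes cannot be set against each other. Since the arrays measure whole islets, fewer cells of a type and less RNA per cell cannot be told apart. Scaling by quantiles put the median over all probes at -0.08 in OB vs WT on the log2 scale, and scaling by the 75th percentile put it at -0.19, so the differences below are relative to such shifts.

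The array spots well above background made up 54.3% to 64.9% of an array, and the median processed signal ranged from 20.9 to 40.6, lowest on a WT and highest on an OB array. Pparg, the targeted gene, had a log2 level of 8.54 to 9.77 on the WT and OB arrays and of 6.41 to 7.44 on the PPARg2KO and DKO arrays, with no overlap (PPARg2KO vs WT -1.79, adjusted p = 0.257, DKO vs WT -2.01, adjusted p = 0.0643). Lep was well above background on no array and checks nothing. Hand-picked islets carry other tissue, and the summed log2 signal of 13 acinar genes, all well above background on every array, was 21.3 to 21.5 in WT, 21.2 to 21.5 in PPARg2KO, 21.1 to 21.4 in OB and 21.3 to 21.4 in DKO. That sum follows the brightest probes, and gene by gene 9 of the 13 were lower in OB than in WT (median -0.20) and 1 was called lower, with Gp2, for example, at 16.50, 16.61 and 16.08 in WT and 14.97, 15.29 and 15.42 in OB. The beta cell genes (9 measured, 8 of them well above background on every array) summed to 19.3 to 19.7, 19.5 to 19.7, 19.7 to 19.8 and 19.6 to 19.7 in the same order. This sum too follows its brightest probes, Ins1 and Ins2. Gene by gene, 6 of the 9 were higher in OB than in WT and 1 was called higher. All 9 were lower in DKO than in OB (median -0.82), and 5 of the 9 were lower in DKO than in WT (median -0.48), with none called.

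In OB vs WT, 10 of the 65 genes were called, 6 higher and 4 lower in OB, which is 9.23% and 6.15%. Over all probes 4.92% were called higher and 6.14% lower, and over all genes by their brightest probe 6.48% and 7.13%. The share lower was close to the background, and the share higher was above it, by a difference that was not tested. The genes that rose were Gpx3, Gsto2, Gstt4, Txndc16, Txndc12 and Sod1, and those that fell were Gss, Gstt3, Gstp1 and Txnrd3. The median log2 fold change over the 65 genes was -0.21 beside -0.06 over all genes with a named probe, with 25 genes higher and 40 lower, and 40% of the genes against 37% of all genes had an unadjusted p below 0.05. The difference of each of the 10 called genes had 1 sign on all 3 slides, each of which held 1 array of every genotype, and this is a description, since the genes were called on these same arrays. Scaling by the 75th percentile, which put the median over all probes at -0.19, kept the number at 10 but gave 4 higher and 6 lower. The share of all probes called is not given for that scaling. None of the 65 was called when the fit held only the WT and OB arrays, with 564 of all probes called, or when WT replicate 1, WT replicate 2, OB replicate 2 or OB replicate 3 was left out, with 173 to 509 of all probes called.

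**Figure D1:**
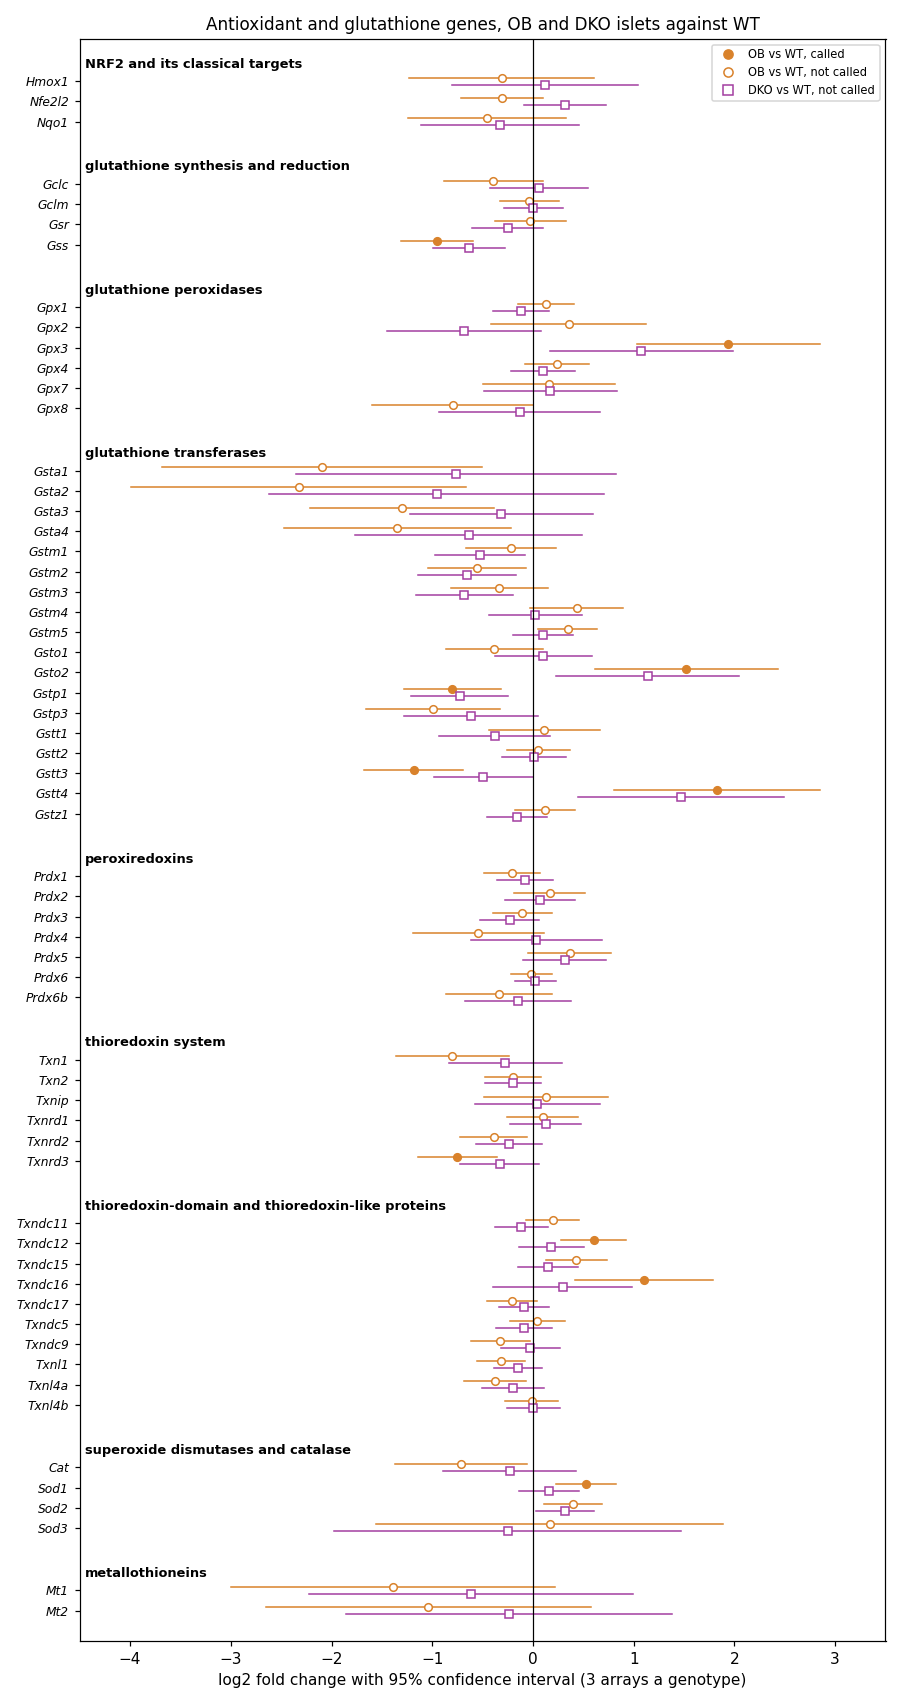
Log2 fold change (horizontal axis) with its 95% confidence interval for the 60 genes well above background on every array of at least 1 genotype, grouped by role, in OB vs WT (orange circles) and DKO vs WT (purple squares), n = 3 arrays per genotype. Gstt4 is drawn at its measured value, although it was not well above background in WT. Filled symbols were called, and the 10 filled ones are all OB vs WT: Gpx3, Gsto2, Gstt4, Txndc16, Txndc12 and Sod1 to the right of 0 and Gss, Gstt3, Gstp1 and Txnrd3 to the left.

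Of the 3 genes of NRF2 and its classical targets, none was called in OB vs WT. Nfe2l2 (NM_010902) had log2 levels of 11.73, 11.60 and 11.21 on the WT arrays, 11.27, 11.22 and 11.55 on the PPARg2KO arrays, 11.41, 11.32 and 10.86 on the OB arrays and 11.96, 11.70 and 11.82 on the DKO arrays. Every DKO array lay above every OB array, while the WT arrays overlapped with both. The log2 fold change was -0.31 (SE 0.18, adjusted p = 0.273) in OB vs WT and 0.63 (SE 0.18, unadjusted p = 0.00659, adjusted p = 0.531) in DKO vs OB, so neither was called. The heme oxygenase Hmox1, which degrades heme to biliverdin, gave -0.31 in OB vs WT with a 95% interval from -1.23 to 0.61, and the quinone reductase Nqo1 gave -0.45 with an interval from -1.24 to 0.33.

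To show what NRF2 would have to bind, the promoters of the genes (250 bases before to 50 after the start site, RefSeq, build GRCm38.p6) were searched on both strands for the core of the antioxidant response element, TGACNNNGC, where N is any base. Of the 65 genes 55 have a promoter in that table, and 12 of the 55 (21.8%) held the core in at least 1 promoter, beside 3781 of 27025 genes (14%) over the whole table. All 13 genes called in any comparison have a promoter there, and 1 of them, Sod1, held the core. A match describes the letters of this window and is not a site of binding. The stretches around the core of Sod1, which was called, and of Nfe2l2, Gclm, Prdx1 and Txnrd1, genes of the NRF2 pathway that were not, are printed 5′ to 3′ on the strand of the gene, with the core or its complement in capitals. They lie at chr16:90220681-90220740 (plus strand, Sod1), chr2:75704869-75704913 (minus strand, Nfe2l2), chr3:122245398-122245457 (plus strand, Gclm), chr4:116685441-116685500 (plus strand, Prdx1) and chr10:82859089-82859148 (plus strand, Txnrd1).
Sod1: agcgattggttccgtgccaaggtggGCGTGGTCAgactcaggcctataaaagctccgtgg
Nfe2l2: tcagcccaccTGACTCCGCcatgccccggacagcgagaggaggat
Gclm: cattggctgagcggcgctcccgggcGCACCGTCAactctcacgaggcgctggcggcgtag
Prdx1: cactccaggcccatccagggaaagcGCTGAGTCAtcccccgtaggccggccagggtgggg
Txnrd1: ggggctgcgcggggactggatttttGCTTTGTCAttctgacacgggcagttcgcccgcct
In Sod1, Gclm, Prdx1 and Txnrd1 the core reads on the strand opposite to the gene, and in Nfe2l2 on the strand of the gene.

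Glutathione synthesis and reduction was represented by 4 genes, of which Gss fell in OB and the other 3 were not called. Gss (NM_008180), the enzyme of the last step of glutathione synthesis, had log2 levels of 10.51, 10.47 and 10.30 in WT, 10.23, 10.08 and 9.96 in PPARg2KO, 9.74, 9.36 and 9.33 in OB and 9.50, 10.01 and 9.87 in DKO. The OB arrays were all below the WT and the PPARg2KO arrays, and the DKO arrays overlapped with PPARg2KO and with OB. Its log2 fold change was -0.95 (SE 0.16, adjusted p = 0.0186) in OB vs WT, which is 0.517 of the WT level, and -0.63 (SE 0.16, adjusted p = 0.117) in DKO vs WT.

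The rate-limiting enzyme of the pathway was not called. Its catalytic subunit Gclc (NM_010295) gave -0.39 (95% interval -0.88 to 0.10) in OB vs WT, and its modifier subunit Gclm (NM_008129) gave -0.03 (-0.33 to 0.26). The glutathione reductase Gsr (NM_010344) gave -0.03 (-0.38 to 0.33), with a WT level of 10.75 on each of the 3 arrays and OB levels of 10.84, 10.73 and 10.61, and its other probes gave -0.11 and -0.12. The intervals of Gclm and Gsr stayed within 0.5 log2 units of 0.

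Among the 7 glutathione peroxidases, Gpx3 rose in OB and no other member was called. Gpx3 (NM_008161), the secreted peroxidase of plasma, had log2 levels of 10.08, 10.73 and 11.60 in WT, 11.83, 11.88 and 11.10 in PPARg2KO, 12.54, 12.45 and 13.23 in OB and 12.25, 11.92 and 11.46 in DKO. The 3 OB arrays were the highest of the 12, and the DKO arrays overlapped with WT through WT replicate 3. Its log2 fold change was 1.94 (SE 0.40, adjusted p = 0.0276) in OB vs WT, a 3.84-fold rise, 1.08 (SE 0.40, adjusted p = 0.228) in DKO vs WT and -0.86 (95% interval -1.77 to 0.04, adjusted p = 0.541) in DKO vs OB.

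The peroxidases of the cell interior were not called. The cytosolic Gpx1 (NM_008160) gave 0.13 (95% interval -0.15 to 0.41) in OB vs WT, and Gpx4 (NM_001037741), which reduces lipid hydroperoxides in membranes, gave 0.24 (-0.08 to 0.56). Gpx2 (NM_030677), the epithelial form, had the largest difference of the peroxidases between DKO and OB, with 12.32, 12.72 and 11.71 in OB and 10.88, 11.74 and 11.02 in DKO. These overlapped, and the difference of -1.04 (SE 0.34, adjusted p = 0.531) was not called. The endoplasmic reticulum peroxidase Gpx8 had OB levels of 9.17, 7.96 and 7.46 against 8.89 to 9.06 in WT, and its fold change of -0.80 was not called (adjusted p = 0.162).

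Glutathione transferases were the largest group, with 20 genes. In OB vs WT 7 were higher and 13 lower with a median log2 fold change of -0.36, and 12 of the 20 (60%) had an unadjusted p below 0.05. Of the 20, 4 were called, with Gsto2 and Gstt4 higher (10%) and Gstt3 and Gstp1 lower (10%). Over all genes 6.48% were called higher and 7.13% lower, and the difference from these shares was not tested. Over all genes with a named probe 37% had an unadjusted p below 0.05. By sign alone, the alpha, mu and pi genes were mostly lower in OB, and the omega and theta classes each held genes on both sides.

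Gstp1 (NM_013541), the pi class enzyme, had log2 levels of 16.98, 16.90 and 16.81 in WT, 16.72, 16.77 and 17.04 in PPARg2KO, 16.59, 15.97 and 15.73 in OB and 16.00, 16.45 and 16.06 in DKO. Both leptin-deficient genotypes lay wholly below both leptin-intact ones. The log2 fold change was -0.80 (SE 0.21, adjusted p = 0.0444) in OB vs WT and -0.73 (SE 0.21, adjusted p = 0.147) in DKO vs WT, and the dimmer probe of the gene gave -1.06 (adjusted p = 0.0216) in OB vs WT. With the slide as a block the adjusted p of the brighter probe was 0.0628. Gstp2, a near-identical copy, has no named probe, and whether the Gstp1 probes also detect its RNA was not tested. The related Gstp3 (NM_144869) gave -0.99 (SE 0.29, adjusted p = 0.0591).

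Gstt3 (NM_133994), a theta class transferase, had log2 levels of 10.68, 10.93 and 10.26 in WT, 10.77, 10.51 and 10.19 in PPARg2KO, 9.77, 9.28 and 9.27 in OB and 9.97, 10.10 and 10.32 in DKO. The OB arrays were the lowest 3 of the 12. The fold change was -1.18 (SE 0.22, adjusted p = 0.0227) in OB vs WT, -1.05 (SE 0.22, adjusted p = 0.0864) in OB vs PPARg2KO and 0.69 (SE 0.22, adjusted p = 0.531) in DKO vs OB. Gstt1 and Gstt2 of the same class gave log2 fold changes of 0.11 and 0.05 in OB vs WT.

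Gstt4 (NM_029472) was dim. No WT array had it well above background, against 1 PPARg2KO, 3 OB and 2 DKO arrays. Its measured log2 levels were 3.33, 1.56 and 2.58 in WT and 4.66, 4.12 and 4.16 in OB, and it was at least 1.42-fold higher in OB than in WT (adjusted p = 0.0379), where the bound sets the OB mean against the lowest signal well above background on the WT arrays. Its dimmer probe gave 1.22 (adjusted p = 0.309).

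Gsto2 (NM_026619), which recycles vitamin C from dehydroascorbate, had log2 levels of 7.03, 7.47 and 7.70 in WT, 7.39, 8.57 and 7.46 in PPARg2KO, 8.12, 9.09 and 9.54 in OB and 8.66, 8.33 and 8.62 in DKO. OB and DKO were above all WT arrays, and PPARg2KO replicate 2 lay among them. The fold change was 1.52 (SE 0.40, adjusted p = 0.0436) in OB vs WT and 1.14 (SE 0.40, adjusted p = 0.207) in DKO vs WT. A dimmer probe of Gsto2, well above background on no array, gave 0.54 (adjusted p = 0.49), and the mean of both probes was not called (1.03, adjusted p = 0.146). Gsto1 (NM_010362) gave -0.38 (95% interval -0.86 to 0.10).

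The alpha class had the largest differences in size and the widest spread. Gsta2 (NM_008182) had log2 levels of 9.26, 8.99 and 8.12 in WT, 9.65, 9.51 and 9.35 in PPARg2KO, 7.94, 4.50 and 6.95 in OB and 7.34, 8.38 and 7.78 in DKO. All OB arrays were below all WT arrays, by a margin set by OB replicate 1, and the SD was 1.77 in OB against 0.60 in WT. The fold change of -2.33 (SE 0.74, 95% interval -3.99 to -0.66, adjusted p = 0.0698) was not called.

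Gsta1 (NM_008181) had nearly the same profile, with 9.57, 6.32 and 8.81 in OB against 10.76, 10.55 and 9.69 in WT (-2.10, adjusted p = 0.0809). Whether the probes of these near-identical genes read each other's RNA was not tested. Gsta3 (NM_001077353) gave -1.30 (adjusted p = 0.0659), and its dimmer probe, with -1.37 (adjusted p = 0.0487), was called. Gsta4 (NM_010357), which conjugates the lipid peroxidation product hydroxynonenal, gave -1.35 (adjusted p = 0.104).

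The pools also held duct cells, and the summed log2 signal of 8 duct genes, all well above background on every array, was 16.3 to 16.5 in WT, 16.2 to 16.6 in PPARg2KO, 15.6 to 16.2 in OB and 15.9 to 16.4 in DKO. The lowest sums, 15.62 and 15.59, were those of OB replicates 2 and 3, where Gsta1 to Gsta4, Gstp1, Gstt3, Gpx8 and Txn1 were also lowest. That sum follows the brightest probes, Krt19 and Spp1. In OB vs WT 6 of the 8 duct genes were lower and 2 higher, and 3 were called, all lower. Krt19 had 15.96, 16.17 and 15.76 in WT and 14.95, 14.24 and 13.99 in OB. The 2 higher ones were Krt7 and Spp1, with Spp1 at 13.82, 13.92 and 14.62 in WT and 15.13, 14.63 and 14.76 in OB. The part of duct, acinar, macrophage, stellate and fibroblast cells in these differences was not tested.

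Of the mu class, Gstm1 (NM_010358) had log2 levels of 13.27, 13.63 and 13.94 in WT and 13.17, 13.61 and 13.42 in OB, which overlapped (-0.22, 95% interval -0.66 to 0.23). Gstm2 and Gstm3 gave -0.56 and -0.34, Gstm7, well above background on 1 array of each of both genotypes, gave -1.26, and Gstm4 and Gstm5 gave 0.44 and 0.34. None of these was called in OB vs WT.

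**Figure D2:**
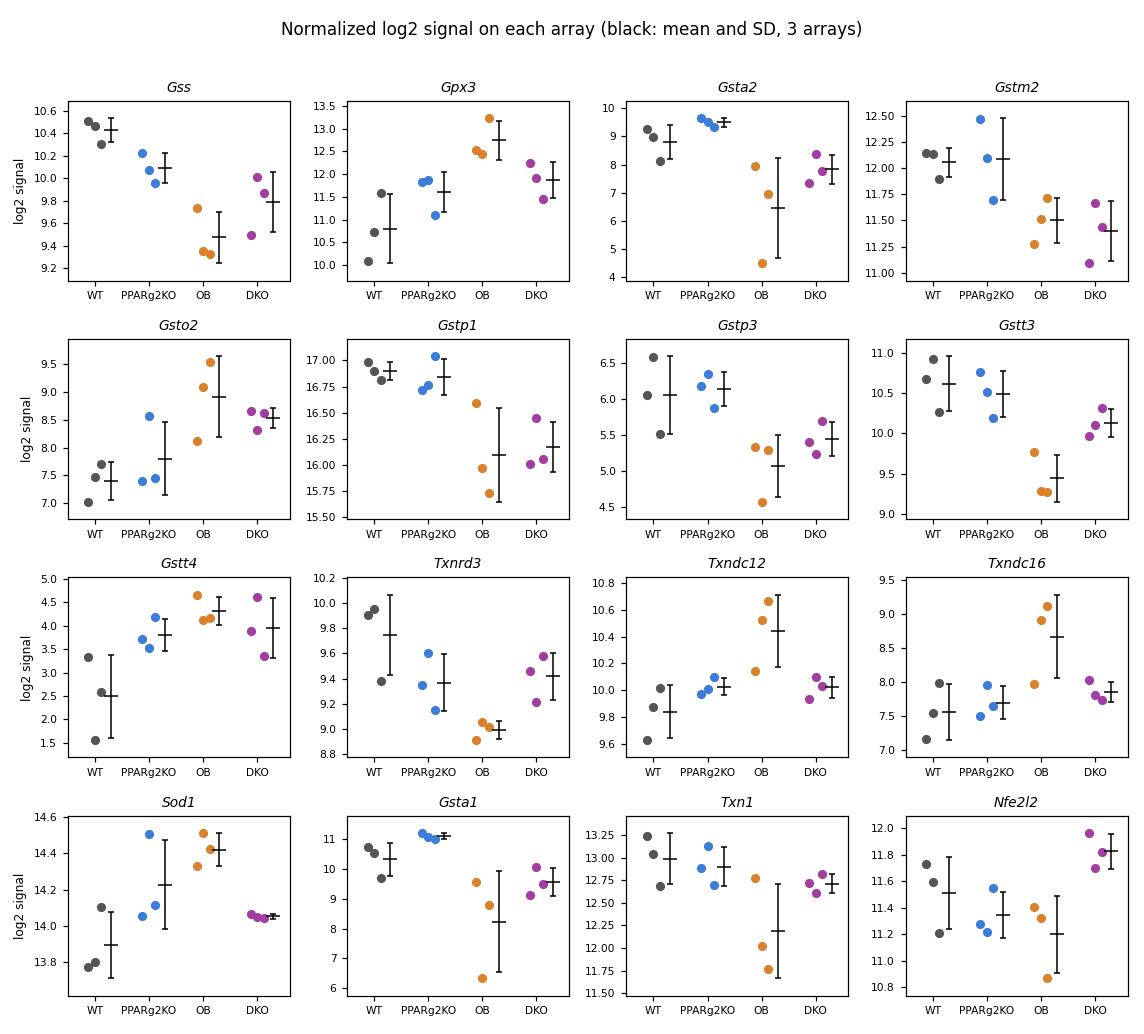
Normalized log2 signal (vertical axis, a scale of its own for each gene) on each of the 3 arrays of WT, PPARg2KO, OB and DKO (coloured points), with the mean and SD in black, for the 13 genes called in any comparison and for Gsta1, Txn1 and Nfe2l2. The 3 OB arrays of Gpx3 (12.45 to 13.23) and of Gstt3 (9.27 to 9.77) stand apart from the other 9 arrays, while Gsta2 spans 4.50 to 7.94 within OB.

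Of the 7 peroxiredoxins, the main peroxide-removing enzymes of the beta cell, none was called in OB vs WT, and their log2 fold changes ran from -0.54 (Prdx4) to 0.37 (Prdx5) with a median of -0.10. The cytosolic Prdx6 (NM_007453) had levels of 12.27, 12.01 and 12.29 in WT and 12.18, 12.18 and 12.16 in OB, and its 95% interval was -0.22 to 0.19. Its dimmer probes lay below that interval and were not called. They gave -0.27 (adjusted p = 0.131) and, well above background on 4 arrays, -0.90 (adjusted p = 0.229). Prdx1 gave -0.21 (-0.49 to 0.07), Prdx2 0.16 and the mitochondrial Prdx3 -0.10.

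Prdx4 (NM_016764), the peroxiredoxin of the endoplasmic reticulum, had OB levels of 11.68, 12.03 and 12.27 and WT levels of 12.66, 12.88 and 12.07, which overlapped (adjusted p = 0.234). Prdx5 (NM_012021), of mitochondria and peroxisomes, was higher on every OB than on every WT array, at 11.12 to 11.45 in OB and 10.85 to 11.07 in WT (adjusted p = 0.211).

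In the thioredoxin system of 6 genes, Txnrd3 fell in OB. Txnrd3 (NM_153162), a thioredoxin reductase with a glutaredoxin domain, had log2 levels of 9.90, 9.95 and 9.38 in WT, 9.35, 9.60 and 9.15 in PPARg2KO, 8.91, 9.05 and 9.02 in OB and 9.46, 9.22 and 9.58 in DKO. The OB arrays were the lowest 3 of the 12. The fold change was -0.75 (SE 0.17, adjusted p = 0.0337) in OB vs WT and -0.33 (SE 0.17, adjusted p = 0.393) in DKO vs WT.

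The cytosolic thioredoxin Txn1 (NM_011660), the main electron donor of the peroxiredoxins, was at 13.24, 13.04 and 12.69 in WT and at 12.77, 12.02 and 11.77 in OB. OB replicate 1 lay inside the WT range, and the fold change of -0.80 (SE 0.25, adjusted p = 0.0658) was not called. Its mitochondrial counterpart Txn2 gave -0.19, and the reductases Txnrd1 and Txnrd2 gave 0.10 (95% interval -0.26 to 0.45) and -0.39 (-0.72 to -0.06, adjusted p = 0.105). Txnip (NM_001009935), the glucose-induced inhibitor of thioredoxin, had OB levels of 11.01, 11.85 and 12.31 around the WT levels of 11.47, 11.58 and 11.74 (0.13, adjusted p = 0.778).

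Of the 12 thioredoxin-domain and thioredoxin-like genes, 2 rose in OB. Txndc12 (NM_025334), an oxidoreductase of the endoplasmic reticulum, had log2 levels of 9.63, 9.88 and 10.02 in WT, 9.97, 10.01 and 10.10 in PPARg2KO, 10.14, 10.52 and 10.66 in OB and 9.94, 10.10 and 10.03 in DKO. All OB arrays exceeded the other 9. Its fold change was 0.60 (SE 0.14, adjusted p = 0.0353) in OB vs WT, and -0.42 (SE 0.14, adjusted p = 0.531) in DKO vs OB. With scaling by the 75th percentile it was 0.45 (adjusted p = 0.0625).

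Txndc16 (NM_172597), also a protein of the endoplasmic reticulum, had 7.16, 7.54 and 7.98 in WT and 7.97, 8.91 and 9.12 in OB. OB replicate 1 was within the WT range, and the fold change was 1.11 (SE 0.30, adjusted p = 0.0485). Its dimmer probe, well above background on no array, gave -0.52 (adjusted p = 0.523). The remaining 10 genes of the group were not called, and among them Txnl4a and Txnl4b, which share the name but belong to the splicing machinery, gave -0.38 and -0.01.

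Sod1 rose in OB, and the other 3 genes of superoxide dismutases and catalase were not called. Sod1 (NM_011434), the cytosolic copper and zinc enzyme, had log2 levels of 13.78, 13.80 and 14.11 in WT, 14.06, 14.51 and 14.12 in PPARg2KO, 14.33, 14.51 and 14.42 in OB and 14.07, 14.05 and 14.04 in DKO. OB was above all WT and all DKO arrays, and PPARg2KO spanned the gap. The fold change was 0.53 (SE 0.13, adjusted p = 0.0389) in OB vs WT, a 1.44-fold rise, and 0.16 (95% interval -0.14 to 0.46) in DKO vs WT. With scaling by the 75th percentile it was 0.27 (adjusted p = 0.251), so the call depends on the scaling.

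The mitochondrial Sod2 (NM_013671) had 12.50, 12.46 and 12.72 in WT and 12.99, 13.08 and 12.79 in OB, with no overlap, and its 0.39 (SE 0.13, adjusted p = 0.0742) was not called. Catalase, Cat (NM_009804), was at 9.48, 9.70 and 9.23 in WT, 8.98 to 10.25 in PPARg2KO, 8.92, 8.46 and 8.88 in OB and 9.29, 9.17 and 9.25 in DKO. OB lay below WT on every array, and the fold change of -0.72 (SE 0.29, adjusted p = 0.132) was not called. The secreted Sod3 was well above background on 1 of 3 WT arrays and on all OB arrays, and gave 0.16 (95% interval -1.56 to 1.88).

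The metallothioneins, which bind zinc and scavenge radicals, had single arrays far below the others. Mt1 (NM_013602) had log2 levels of 16.64, 17.51 and 17.15 in WT, 16.98, 17.34 and 15.35 in PPARg2KO, 14.13, 16.05 and 16.94 in OB and 16.20, 16.31 and 16.93 in DKO. OB replicate 1 and PPARg2KO replicate 3 were the lowest, for Mt2 (14.07 and 15.60) as for Mt1. The fold changes of -1.39 (SE 0.71, adjusted p = 0.22) and -1.04 (SE 0.72, adjusted p = 0.35) in OB vs WT were not called.

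**Figure D3:**
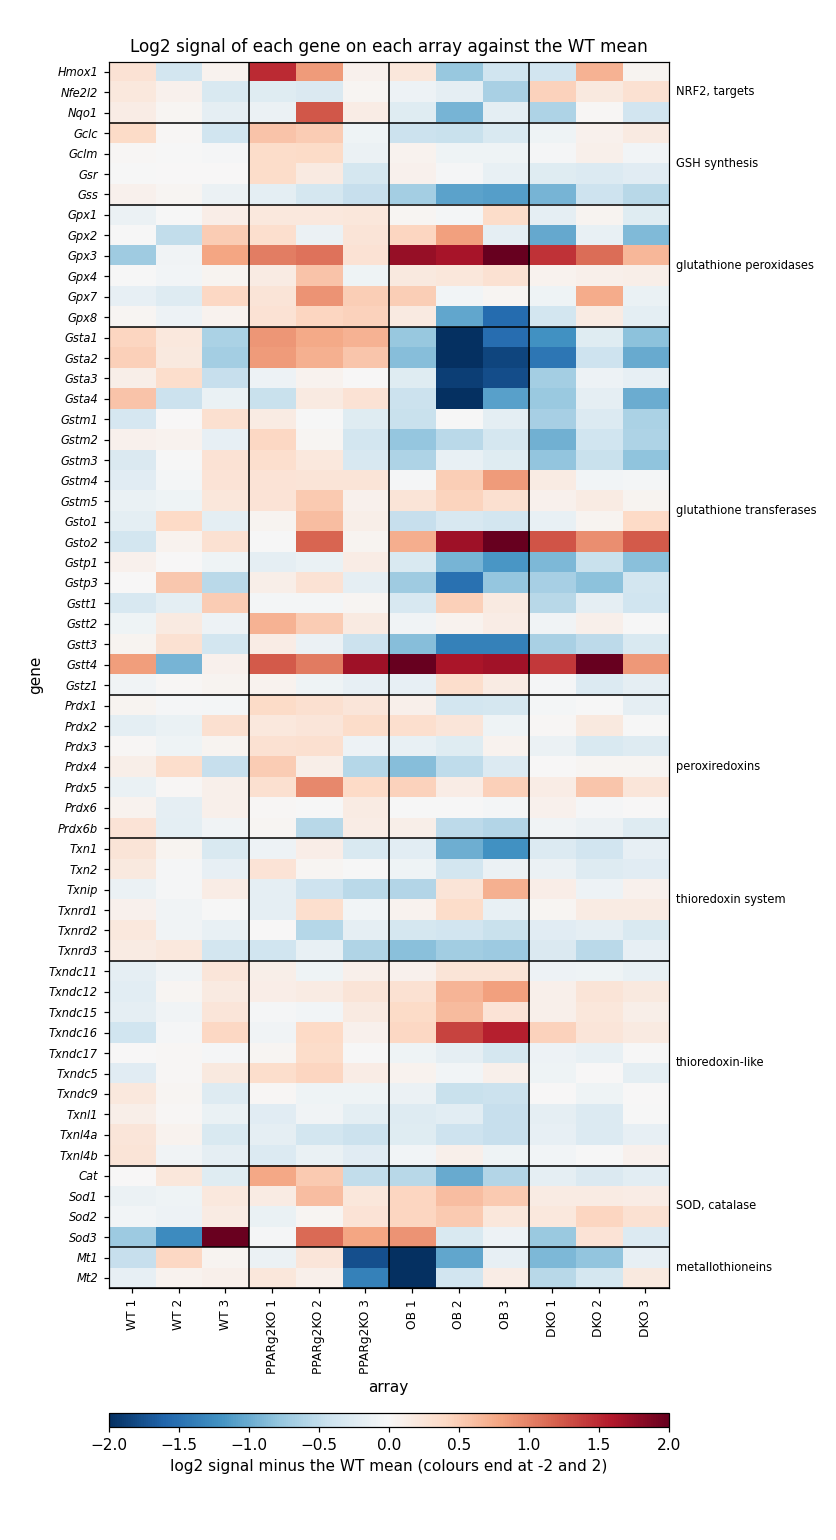
Log2 signal minus the WT mean (colour, blue lower and red higher, with the scale ending at 2 log2 units on either side) of the 60 genes well above background on every array of at least 1 genotype (rows, by role) on the 12 arrays (columns). The alpha class transferases are darkest blue on OB replicates 2 and 3, and Mt1 and Mt2 on OB replicate 1. Gpx3 is red on all PPARg2KO, OB and DKO arrays and also on WT replicate 3.

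When both leptin-deficient genotypes were set against both leptin-intact ones (OB and DKO vs WT and PPARg2KO, 6 against 6 arrays), 8 of the 65 genes were called, 2 higher (3.08%) and 6 lower (9.23%). Over all probes 4.23% were called higher and 4.81% lower, and over all genes by their brightest probe 5.64% and 5.37%. The median log2 fold change was -0.20 beside -0.05 over all genes with a named probe, and 43.1% of the genes against 33.7% of all genes had an unadjusted p below 0.05. This comparison shares arrays with OB vs WT, and 5 genes were called in both. Scaling by the 75th percentile, which put the median over all probes at -0.12, gave 2 higher and 11 lower. The share of all probes called is not given for that scaling. No gene was called when WT replicate 2, PPARg2KO replicate 1 or DKO replicate 1 was left out, with 340 to 801 of all probes called.

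Gpx3 (1.11, SE 0.28, adjusted p = 0.0444) and Gsto2 (1.13, SE 0.28, adjusted p = 0.0425) were higher with leptin deficiency. Gss (-0.62, SE 0.11, adjusted p = 0.0212), Gstt3 (-0.77, SE 0.15, adjusted p = 0.0265), Gstp1 (-0.74, SE 0.15, adjusted p = 0.0281), Gstm2 (-0.62, SE 0.15, adjusted p = 0.0392), Gstp3 (-0.84, SE 0.21, adjusted p = 0.04) and Gsta2 (-1.998, SE 0.52, adjusted p = 0.0465) were lower. With the slide as a block the adjusted p was 0.0703 for Gpx3, 0.0639 for Gsta2, 0.0573 for Gstm2 and 0.0631 for Gstp3.

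Gstm2 (NM_008183), a mu class transferase, had log2 levels of 12.14, 12.13 and 11.89 in WT, 12.47, 12.10 and 11.69 in PPARg2KO, 11.28, 11.51 and 11.71 in OB and 11.09, 11.66 and 11.44 in DKO. Apart from PPARg2KO replicate 3, the leptin-intact arrays lay above all leptin-deficient ones. Gstp3 had 6.06, 6.60 and 5.52 in WT, 6.18, 6.35 and 5.88 in PPARg2KO, 5.34, 4.57 and 5.29 in OB and 5.40, 5.23 and 5.70 in DKO, where only WT replicate 3 reached into the leptin-deficient range. Gsta1 (-1.82, adjusted p = 0.0526), Gstm3 (-0.55, adjusted p = 0.0539) and Sod2 (0.32, adjusted p = 0.0552) came close to the threshold without passing it.

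Markers of other cells also differed between these arrays: in OB vs WT 7 of 9 T cell, 4 of 6 B cell and 3 of 6 endothelial genes were called higher, as was 1 of 6 alpha cell genes. Over all genes 6.48% were called higher. The other 2 T cell genes, Cd3e and Cd4, were lower in OB. Cd3e, the brightest T cell probe in WT, had 8.25, 8.33 and 8.08 in WT and 6.09, 6.65 and 7.46 in OB. The summed log2 signal of 9 T cell genes (3 of them well above background on every array) was 8.82 to 8.89 in WT, 8.19 to 10.7 in PPARg2KO, 10.2 to 11.6 in OB and 9.39 to 11.1 in DKO, and that of 6 endothelial genes (all well above background on every array) was 10.7 to 12.1, 11.9 to 12.3, 12.5 to 13.0 and 12.1 to 12.5 in the same order. The sum of 6 B cell genes (2 of them well above background on every array) was 6.57 to 6.85 in WT, 6.88 to 11.4 in PPARg2KO, 10.3 to 11.8 in OB and 10.1 to 11.7 in DKO. PPARg2KO replicate 2, the highest of its genotype for Gsto2, also had the highest T cell and B cell sums of its genotype. Cd3e, Cd4 and Cr2, however, were higher on PPARg2KO replicate 1. Within OB, Gsto2 rose from replicate 1 to 3 (8.12, 9.09 and 9.54), as did the T cell sum (10.16, 10.38 and 11.60). The B cell sum fell over the same arrays (11.85, 11.48 and 10.27). Of 6 adipocyte genes, Adipoq and Lep were well above background on no array, and the sum was 9.89 to 11.2 in WT and 11.6 to 11.8 in OB. That sum was set by Fabp4, the only 1 of the 6 well above background on every array. Fabp4 had 10.20, 9.85 and 11.18 in WT and 11.83, 11.71 and 11.63 in OB. In OB vs WT 4 of the 6 were higher and 2 lower, so the sum does not show a change of adipocytes. The part of all these cell types in the rise of Gpx3 and Gsto2 was not tested.

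In DKO vs WT none of the 65 genes was called, beside 0.163% of all probes called higher and 0.0316% lower. By limma 11 genes (16.9%) had an unadjusted p below 0.05, against 17.2% of all genes, and weighting the arrays gave 4 calls beside 9.72% of all probes called. The smallest adjusted p was that of Gss (0.117), followed by Gstp1 (0.147), Gstt4 (0.161), Gstm3 (-0.68, adjusted p = 0.168) and Gstm2 (-0.66, adjusted p = 0.18). The WT arrays are shared with OB vs WT, so the values of the genes called there are given side by side and nothing is read from their order. Gss stood at -0.95 in OB and -0.63 in DKO, Gstp1 at -0.80 and -0.73, Gstt3 at -1.18 and -0.49, Txnrd3 at -0.75 and -0.33, Gpx3 at 1.94 and 1.08, Gsto2 at 1.52 and 1.14, Txndc16 at 1.11 and 0.29, Txndc12 at 0.60 and 0.18, and Sod1 at 0.53 and 0.16. Of the 60 genes measured in at least 1 genotype, 43 had a 95% interval in DKO vs WT that stayed within 1 log2 unit of 0.

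The direct test of the loss of PPARg2 in leptin-deficient mice, DKO vs OB, called none of the 65 genes, beside 0.00486% of all probes higher and 0% lower. Here 36 genes were higher and 29 lower in DKO with a median of 0.02, and 11 genes (16.9%) against 11.8% of all genes had an unadjusted p below 0.05. The lowest unadjusted p values were those of Nfe2l2 (0.00659), Gstt3 (0.0111), Gpx2 (0.0133), Txndc12 (0.0158) and Sod1 (0.0211), and the smallest adjusted p was 0.531. Among the 20 transferases 9 were higher and 11 lower. Weighting the arrays gave 7 calls, 3 higher and 4 lower, beside 2.88% of all probes called.

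The loss of PPARg2 in lean mice, PPARg2KO vs WT, also called none, and 0% of all probes were called. A p below 0.05 before adjustment was reached by 7 genes (10.8%, against 8.83% of all genes): Gstt2, Prdx5, Gstt4, Txndc5, Prdx1, Sod1 and Txnl4a. The largest positive value among the measured genes after Gstt4 was that of Hmox1, with 14.91, 14.28 and 13.51 in PPARg2KO against 13.72, 13.06 and 13.49 in WT (0.81, adjusted p = 0.579), where the arrays overlapped. Over both backgrounds, PPARg2-null against PPARg2-intact called 0 genes, with 3 below an unadjusted p of 0.05 (4.62%, against 4.09% of all genes). The interaction of both deletions called 0 with 16 below it (24.6%, against 16.1% of all genes). In each of these 0% of all probes were called.

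In the interaction, Sod1 had the lowest p (unadjusted 0.00447, adjusted 0.263) at -0.70 (SE 0.19), and Txnrd3, Nfe2l2 and Txndc12 followed at 0.80, 0.79 and -0.61. OB vs PPARg2KO called none of the genes, beside 0.00243% of all probes in each direction, with 27 below an unadjusted p of 0.05 (41.5%, against 25.1% of all genes) and Gstt3 at the smallest adjusted p of 0.0864. DKO vs PPARg2KO called none, beside 0.00971% of all probes higher and 0% lower, with 15 genes (23.1%, against 12.9%) below an unadjusted p of 0.05 and Gstm3 lowest (-0.76, adjusted p = 0.291).

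The genes around the group were followed by 3 lists. Of 18 regulators and redox partners of NRF2, 2 (11.1%) fell in OB vs WT and none rose, beside 7.13% of all genes called lower, and 27.8% against 37% of all genes had an unadjusted p below 0.05. Ftl1, the ferritin light chain that stores iron, had log2 levels of 15.64, 15.88 and 15.70 in WT and 15.39, 15.12 and 15.27 in OB with no overlap (-0.48, SE 0.09, adjusted p = 0.0243), and stood at 15.66 to 15.70 in DKO. Blvra, which reduces the biliverdin made by heme oxygenase, gave -0.63 (adjusted p = 0.0327). Keap1 had 12.25 to 12.33 in WT and 12.34 to 12.66 in OB and was not called. With leptin deficiency 1 of the 18 was called higher (5.56%) and 2 lower (11.1%), beside 5.64% and 5.37% of all genes. The 1 called higher was the small Maf factor Maff (0.57, SE 0.11, adjusted p = 0.025).

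Of 25 genes of NADPH and cysteine supply and of glutathione turnover, 6 (24%) fell and 1 (4%) rose in OB vs WT with a median of -0.47, beside 7.13% and 6.48% of all genes, and 60% against 37% of all genes had an unadjusted p below 0.05. Enzymes of the pentose phosphate pathway, which supplies NADPH for Gsr and the thioredoxin reductases, were among those that fell: Tkt, with 14.49, 14.42 and 14.36 in WT and 14.08, 13.56 and 13.58 in OB (-0.68, SE 0.13, adjusted p = 0.0231), Taldo1 (-0.83, SE 0.19, adjusted p = 0.0339) and Pgd (-0.81, SE 0.23, adjusted p = 0.0497). The OB arrays of Tkt were below all WT arrays, and the entry enzyme G6pdx was at 11.41, 11.07 and 11.07 in OB and 11.15 to 11.49 in WT, which overlapped. The mitochondrial malic enzyme Me2 (-0.79), the oxoprolinase Oplah (-0.64) and the conjugate exporter Abcc3 (-1.43) also fell. Tkt, Taldo1, Pgd and Abcc3 were lowest on OB replicates 2 and 3. Those arrays also had the lowest sums of duct, macrophage, and stellate and fibroblast genes. The macrophage sum follows its brightest probe, Cd14. Gene by gene, 4 of the 6 macrophage genes were higher in OB than in WT and 2 lower (median 0.51), so this sum does not show fewer macrophages. The part of all these cells was not tested. Ggt7, of the gamma-glutamyltransferase family, rose (1.28, SE 0.29, adjusted p = 0.032), and the cystine carrier Slc7a11, with 7.92, 7.51 and 6.24 in WT and 5.94, 5.47 and 6.06 in OB, was not called.

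The last list held 18 genes, namely the glutaredoxins, microsomal transferases and methionine sulfoxide reductases together with Hpgds, Gstcd, Selenop, Selenow, Selenos, Mt3 and Mt4. Of these 3 (16.7%) fell and 1 (5.56%) rose in OB vs WT, beside 7.13% and 6.48% of all genes. The microsomal transferases split: Mgst1 had 10.38, 10.54 and 11.15 in WT and 9.92, 9.27 and 8.77 in OB (-1.37, SE 0.29, adjusted p = 0.0287), and Mgst3 had 9.36, 10.09 and 9.55 in WT and 8.69, 8.75 and 8.73 in OB (-0.94, SE 0.24, adjusted p = 0.0392). The metallothionein Mt4 had 4.70, 4.64 and 4.64 in WT and 3.37, 3.46 and 3.53 in OB (-1.21, SE 0.27, adjusted p = 0.0306). Mgst2, well above background on 0 WT arrays and all OB arrays, was at least 5.40-fold higher in OB (adjusted p = 0.0436), with measured means of 3.68 and 6.53. Its DKO arrays, at 7.03, 5.63 and 6.93, overlapped with those of OB. In DKO vs WT limma called none of the genes of the 3 lists. In the order of the lists 1, 4 and 4 genes were below an unadjusted p of 0.05 (5.56%, 16% and 22.2%, against 17.2% of all genes).

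**Figure D4:**
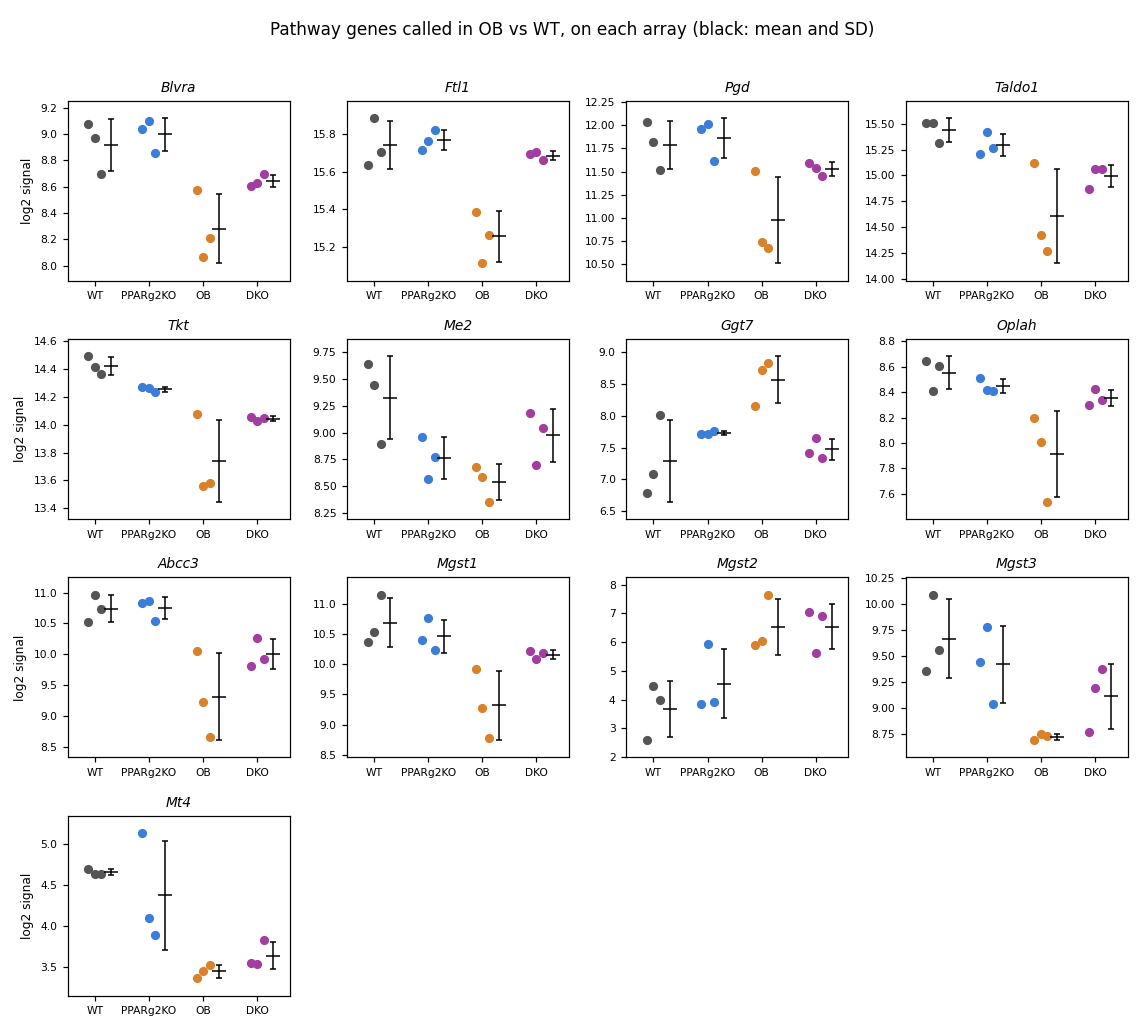
Normalized log2 signal (vertical axis, a scale of its own for each gene) on each array of WT, PPARg2KO, OB and DKO (coloured points), with the mean and SD in black, for the 13 genes of the 3 neighbouring lists that were called in OB vs WT. Tkt, Taldo1, Ftl1 and Mgst1 have all OB arrays below all WT arrays, and Mgst2 and Ggt7 have them above.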

How the data were processed

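Islet RNA was labelled with Cy3 and hybridized to 12 Agilent mouse arrays in 1 colour. The deposited scanner files, made per the labels with Agilent Feature Extraction 10.1.1.1 (submitters' processing notes), hold the intensity of each spot, and the processed signal is already corrected for background. The authors also deposited a table of normalized log2 values, quantile normalized across arrays per the study's methods, which served as an alternative. Control spots and 919 outlier spots were left out, no spot was saturated, and 43379 spots gave 41174 probes, of which 25097 were named through their accession and the RefSeq genes.

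The log2 processed signal was quantile normalized and fitted over all 12 arrays with lmFit and eBayes (R 4.3.3, limma 3.58.1), with Benjamini-Hochberg adjustment over all probes and a threshold of 0.05. Genotypes came from the sample labels. Each gene was taken by the probe of highest mean signal. Described in full are a set of central genes of each role, the called genes of largest fold change in each direction (up to 10 per comparison), and the gene of largest fold change in each role. The genes and lists were chosen with earlier results of these data known. The scripts were tested on simulated data. The number of arrays limits the precision. One list of marker genes is not reported here.

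Alternatives were 75th percentile scaling, normexp (offset 50), probes well above background only, outlier spots kept, only the groups compared, the slide as a replicate block, array weights, the authors' values, a gene's probes averaged, an added log2 fold change of 1, and each array left out. Normexp used the median spot signal, since the files used here give no mean. The slide was also the scan and the replicate number, and each slide held 1 array of every genotype.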

Additional observations from a re-analysis of the deposited data

How the results depend on the processing

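No fold change of a called gene changed sign under any alternative, and limma called 0 of the 65 genes under every alternative in PPARg2KO vs WT, in PPARg2-null vs PPARg2-intact and in the interaction. The counts of called genes were less stable. They are given here without the share of all probes called under each alternative. Their rise or fall is therefore not read as a result about the 65 genes. In OB vs WT the main count was 10, against 0 with only the groups compared, 27 with array weights and 5 with the added log2 fold change of 1, and leaving out 1 array gave 0 to 21. The count was 0 without WT replicate 1, WT replicate 2, OB replicate 2 or OB replicate 3, 3 without DKO replicate 1 or 3, 5 without DKO replicate 2, 16 without OB replicate 1 and 21 without WT replicate 3. With leptin deficiency the main count was 8, against 13 with 75th percentile scaling (2 higher and 11 lower), 24 with array weights and 3 with the added fold change, and leaving out 1 array gave 0 to 15. It was 0 without WT replicate 2, PPARg2KO replicate 1 or DKO replicate 1, 1 without WT replicate 1 or OB replicate 3, 2 without OB replicate 2, DKO replicate 2 or DKO replicate 3, 4 without PPARg2KO replicate 2 and 15 without OB replicate 1. Array weights, which ran from 0.435 for WT replicate 3 to 2.53 for OB replicate 2, gave 4 calls in DKO vs WT, 7 in DKO vs OB and 10 in OB vs PPARg2KO. The main count in OB vs PPARg2KO was 0, and it was 1 among probes well above background and 0 to 12 with 1 array left out (12 without OB replicate 1, 4 without PPARg2KO replicate 3). In DKO vs PPARg2KO leaving out 1 array gave 0 to 1 (1 without PPARg2KO replicate 3). The cause of these shifts was not tested. With normexp, Gsto2 (adjusted p = 0.0511), Sod1 (0.0538) and Txndc16 (0.052) missed the threshold in OB vs WT, and with the mean of all probes Gsto2 (0.146), Gstt4 (0.102) and Txndc16 (0.622) did. The replicate block gave 9 calls in OB vs WT, all among the 10, and 6 with leptin deficiency, of which 4 were among the 8. Same-numbered arrays shared a slide. Of 18 pairs of arrays with the same number 5 had a correlation of deviations over 0.1 (median 0.0045, range -0.322 to 0.276 over 20416 probes). With 3 arrays per genotype these correlations are no test of an effect of the slide. Probes near background, such as Gstt4 and Sod3, limit what can be said of those genes.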
